A study of Mus musculus with 5 samples.

Results

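Immature Ms4a1-positive B cells are bone marrow (BM) B cells that carry the B cell antigen CD20, encoded by Ms4a1, and the signalling chain of the B cell receptor encoded by Cd79a, but little RNA of the later genes Ighd and Fcer2a or of the surrogate light chain genes Vpreb1 and Igll1. They were chosen by counts of unique molecular identifiers (UMIs), each of which marks 1 captured RNA molecule. A cell needed at least 1 UMI of Cd79a, at least 1 of Ms4a1, at most 1 of Ighd and Fcer2a together and at most 2 of Vpreb1 and Igll1 together. The rule held for 1263 of the 21520 cells kept in 3 libraries of whole BM, of which naive BM held 358, D2 CTX BM 894 and D7 CTX BM 11. The values of the 6 genes of the rule are therefore given only as a description of the cells.

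The 3 libraries were made from mice, untreated (naive) or given 1 dose of 150 mg/kg cyclophosphamide (CTX), a DNA-crosslinking drug, into the peritoneum. Treated mice were sampled on day 2 (D2 CTX) or day 7 (D7 CTX). Strain and age come from the paper's general methods, which give BALB/c mice of 4 to 8 weeks at purchase, and not from the labels of these libraries. Each library pooled equal cell numbers from 3 mice after dead cells had been removed, and red cells had been lysed. There was thus 1 library per condition, and no spread between mice or libraries could be measured. The naive library held 47086837 UMIs, the D2 CTX library 34764874 and the D7 CTX library 68459527. No test was made between conditions, and all intervals are exact 95% intervals that cover counting error only. Because shares and levels come from the cells captured, more cells of the class and fewer cells of other kinds cannot be told apart, nor can fewer cells and less RNA per cell in a summed level. Monocytes (CD11b+Ly6Chi) sorted from naive and CTX-treated BM formed 2 further libraries. Any pair of the 5 libraries shared 2 to 16 cell barcodes, and naive and D2 CTX BM shared 6.

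B cells develop in the BM from precursors that first rearrange the heavy chain locus and pair the heavy chain with a surrogate light chain made of VpreB and lambda5. A precursor then rearranges a kappa or lambda light chain gene with the RAG1 and RAG2 recombinase and becomes an immature B cell when a complete IgM reaches its surface. Immature B cells that bind self antigen can keep the recombinase and edit the light chain, and cells that pass this checkpoint gain CD20, the BAFF receptor, IgD, CD21 and CD23 as they leave the marrow or mature in it. Lymphoid cells are known to be sensitive to DNA damage, and p53 is the transcription factor that arrests or kills such cells.

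The marker genes went with the label. Ighm, the heavy chain of IgM and a marker the rule did not use, had at least 1 UMI in 355 of 358 naive cells and in 888 of 894 D2 CTX cells. The median count of Ighm was 22 UMIs in naive and 27 in D2 CTX cells. In T cells (at least 2 UMIs of Trac, Trbc1 and Trbc2, at least 1 of Cd3e and Cd3g and no Cd79a), which should lack Ighm, 47.5% of naive cells and 31.5% of D2 CTX cells also held an Ighm UMI, with a median depth of 2918 and 3126 UMIs against 2432 and 2607 in the immature B cells. Their Ighm level was 204 and 149 CPM (UMIs of a gene scaled to the usual counts-per-million unit), against a median of 9165 and 10384 CPM per cell in immature B cells with little RNA of other cell types. Cd79b, the partner of Cd79a, was detected in 99.2% and 98.4% of the cells. Ms4a1 lies at chr19:11249675-11266241, Cd79a at chr7:24897381-24902197 and Ighm at chr12:113418558-113422730 (mm10, GENCODE M21). Summed over all cells of the class, Ms4a1 made up 1450 CPM in naive and 1722 in D2 CTX, and Cd79a 2552 and 1921 CPM.

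Many cells lay near the limits of the rule. In naive BM 78 of the 358 cells, and in D2 CTX BM 207 of the 894 cells, held exactly 1 UMI of Ighd or Fcer2a, while 50 and 115 cells with 2 such UMIs lay just outside. The cells just outside had a median of 11 Ighm UMIs in naive and 24 in D2 CTX BM. Ms4a1 rested on a single UMI in 69 naive and 125 D2 CTX cells. By contrast, 350 naive and 888 D2 CTX cells had no UMI of Vpreb1 or Igll1.

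Across the B lineage, the genes of maturation gave these cells values between those of 2 neighbouring classes for most genes. For this the cells were thinned at random to 1000 UMIs each, and 3 neighbours were formed from the same genes. Surrogate light chain-rich cells had at least 3 UMIs of Cd79a and at least 3 of Vpreb1 and Igll1 together. Ms4a1-negative B lineage cells had at least 3 UMIs of Cd79a, no Ms4a1, and met the limits of the rule on the other 4 genes. The Ighd or Fcer2a-rich B cells met the rule but had at least 2 UMIs of those genes. Il7r, the receptor for the precursor cytokine IL-7, was detected in 33.5% of naive Ms4a1-negative cells, in 9.58% of the immature Ms4a1-positive cells and in 1.28% of the Ighd or Fcer2a-rich cells. Rag1 had the same order, with 27.0%, 6.76% and 0.426%. At D2 CTX the order of the 3 classes was the same for both genes, with 26.7%, 5.09% and 1.91% for Il7r and 41.6%, 7.92% and 1.09% for Rag1.

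Cd93, the antigen that defines immature and transitional B cells by flow cytometry, was detected after thinning in 29.7% of naive Ms4a1-negative cells, 19.2% of the immature Ms4a1-positive cells and 2.98% of the Ighd or Fcer2a-rich cells, beside 1.88% of T cells. Cr2, which encodes CD21, had the opposite order. It was detected in 0.556%, 3.38% and 17.9% of these classes. Tnfrsf13c, the BAFF receptor, was detected in 31.5% of the immature cells and 29.4% of the Ighd or Fcer2a-rich cells, whose intervals overlapped, and in 14.8% of the Ms4a1-negative cells.

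**Figure D1:**
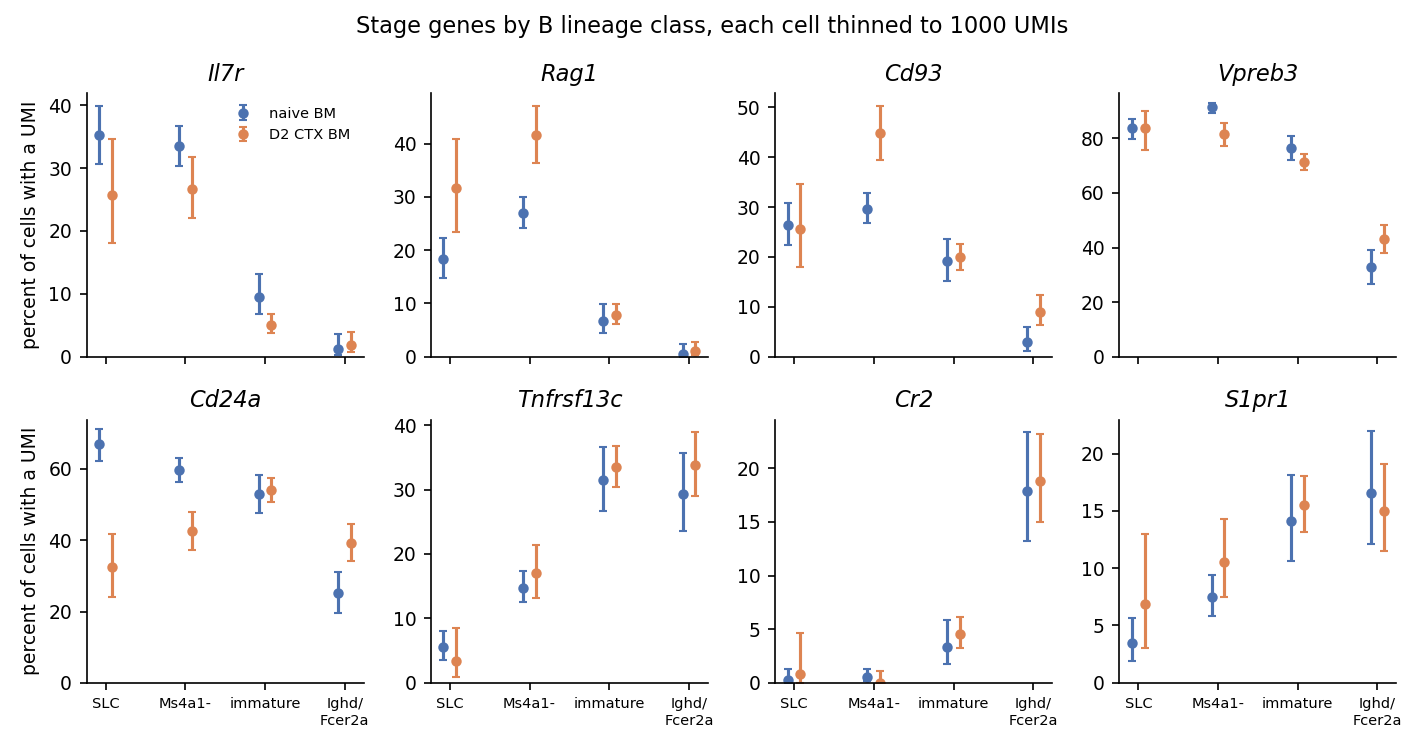
Percent of cells with at least 1 UMI of each of 8 stage genes, with every cell thinned to 1000 UMIs, in surrogate light chain-rich (SLC), Ms4a1-negative, immature Ms4a1-positive and Ighd or Fcer2a-rich cells of naive and D2 CTX BM, with exact 95% intervals. Il7r and Rag1 are lower in the immature Ms4a1-positive than in the Ms4a1-negative cells and lower still in the Ighd or Fcer2a-rich cells. Cr2 is highest in the Ighd or Fcer2a-rich cells.

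Some cells that met the rule carried RNA of other cell types. Over lists of markers for 8 other cell types, more than 5% of the UMIs came from such markers in 23 of the 358 cells of naive BM, in 85 of 894 at D2 CTX and in 3 of 11 at D7 CTX, and 9, 18 and 6 cells held at least 10 UMIs of Jchain, the joining chain of plasma cells. Cells with neither feature were called single-lineage cells and numbered 330, 802 and 5. The name means only that they passed these limits, and RNA of other cell types remained in them, as given below. Those left out were larger, with a median of 7604 against 2350 UMIs in naive and 5726 against 2522 in D2 CTX BM. At D2 CTX the 92 cells left out were 10.3% of the cells but held 29.6% of the UMIs. Whether they were doublets was not tested. The highest scores of Scrublet, a measure of likeness to simulated doublets, marked 30 naive and 89 D2 CTX cells of the class, which are 8.38% and 9.96% of it, beside 6.12% and 5.29% of all kept cells.

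The neutrophil list moved with the condition. Its 12 genes, all detected, summed to 30099 CPM in naive and 52938 CPM in D2 CTX cells, led by S100a8 at 11530 and 22485 CPM. In single-lineage cells the sums were 2865 and 7004 CPM, so neutrophil RNA was higher at D2 CTX there too, and its part in the differences below was not tested. The plasma cell list, led by Jchain, summed to 5117 and 6266 CPM, the monocyte and macrophage list, led by Lyz2, to 2272 and 1741 CPM and the erythroid list, led by Hbb-bs, to 2606 and 1088 CPM. The T cell list summed to 59.0 and 59.0 CPM, the natural killer cell list, led by Nkg7, to 13.02 and 75.7 CPM (17 and 254 UMIs), the plasmacytoid dendritic cell list to 96.5 and 39.3 CPM and the basophil and mast cell list to 6.13 and 9.53 CPM. The natural killer genes Klrb1c, Ncr1, Klre1, Klrk1 and Prf1, and Cd8a, were at 0 in naive cells. In single-lineage cells the monocyte and macrophage list summed to 1765 and 834 CPM, the plasma cell list to 294 and 184 CPM and the erythroid list to 347 and 203 CPM. Within the monocyte and macrophage list C1qa, a complement gene of macrophages, went the other way, with 8 UMIs in 5 naive and 124 UMIs in 9 D2 CTX cells. Single-lineage cells held 7 and 124 of these C1qa UMIs. Values for single-lineage cells are given beside those for all cells where they differ in which genes pass or for the main lists.

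**Figure D2:**
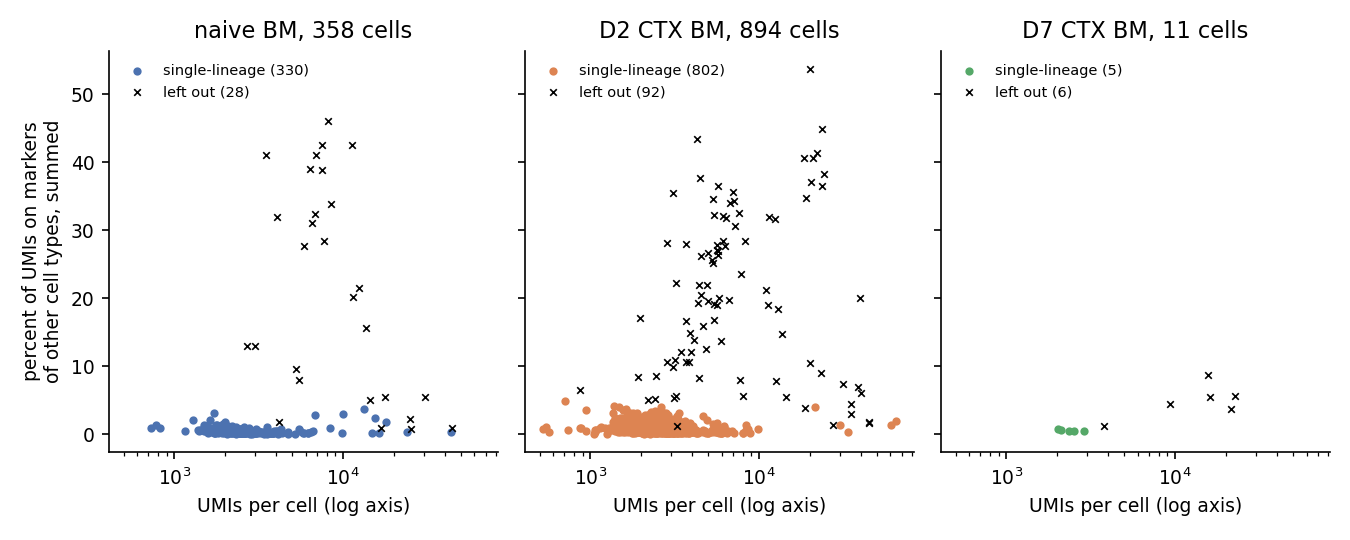
Each cell of the class by its UMIs (log axis) and the percent of its UMIs on marker genes of 8 other cell types, in 3 libraries, with single-lineage cells as coloured points and cells left out of that group as crosses. Most left-out cells of naive and D2 CTX BM have over 5% such UMIs, reaching 46.0% and 53.7%.

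The first comparison asked how the abundance of these B cells differed after CTX. Immature Ms4a1-positive B cells made up 5.04% of kept naive BM cells (358 of 7104, 4.54 to 5.57). They were 14.6% at D2 CTX (894 of 6126, 13.7 to 15.5) and 0.133% at D7 CTX (11 of 8290, 0.0663 to 0.237). The share was thus higher at D2 CTX by 1.53 log2 units (1.36 to 1.71) and lower at D7 CTX by 5.25 log2 units than in naive BM. Among single-lineage cells the shares were 4.65%, 13.1% and 0.0603%. The intervals of the 3 libraries did not overlap.

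Within the B lineage the share of these cells was also higher at D2 CTX. Counting as B lineage each cell with at least 3 UMIs of Cd79a or that met the rule, they were 18.2% of these in naive BM (358 of 1966), 52.5% at D2 CTX (894 of 1703) and 5.19% at D7 CTX (11 of 212). The single-lineage cells were 330 of the 1966 and 802 of the 1703. When the cells were first thinned to 1000 UMIs, the log2 ratio of the D2 CTX share to the naive share was 0.90 in place of 1.53. With myeloid cells left out (at least 5 UMIs and over 2% of UMIs on S100a8, S100a9, Lyz2, Mpo, Elane and Ngp) the class was 10.2% of the naive cells, with 27.3% at D2 CTX and 1.58% at D7 CTX.

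The neighbouring classes moved differently at D2 CTX. The less mature classes were smaller, with surrogate light chain-rich cells at 6.12% of naive and 1.91% of D2 CTX cells (log2 ratio -1.68, -1.99 to -1.38) and Ms4a1-negative cells at 12.7% and 5.60% (-1.18). The Ighd or Fcer2a-rich B cells were at 3.31% and 5.99%, with 0.86 (0.62 to 1.10) as the log2 ratio, whose interval lay below that of the immature Ms4a1-positive cells. T cells by receptor genes, a class added after the data had been seen, were at 2.25% and 5.34%, a log2 ratio of 1.24 (0.97 to 1.53). The planned T cell class, by Cd3d, Cd3e and Cd3g, gave -0.02 (-0.15 to 0.10). At D7 CTX surrogate light chain-rich cells (1.45%) outnumbered Ms4a1-negative cells (0.905%), immature Ms4a1-positive cells (0.133%) and Ighd or Fcer2a-rich cells (0.0603%). The last 2 did not differ beyond their intervals.

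**Figure D3:**
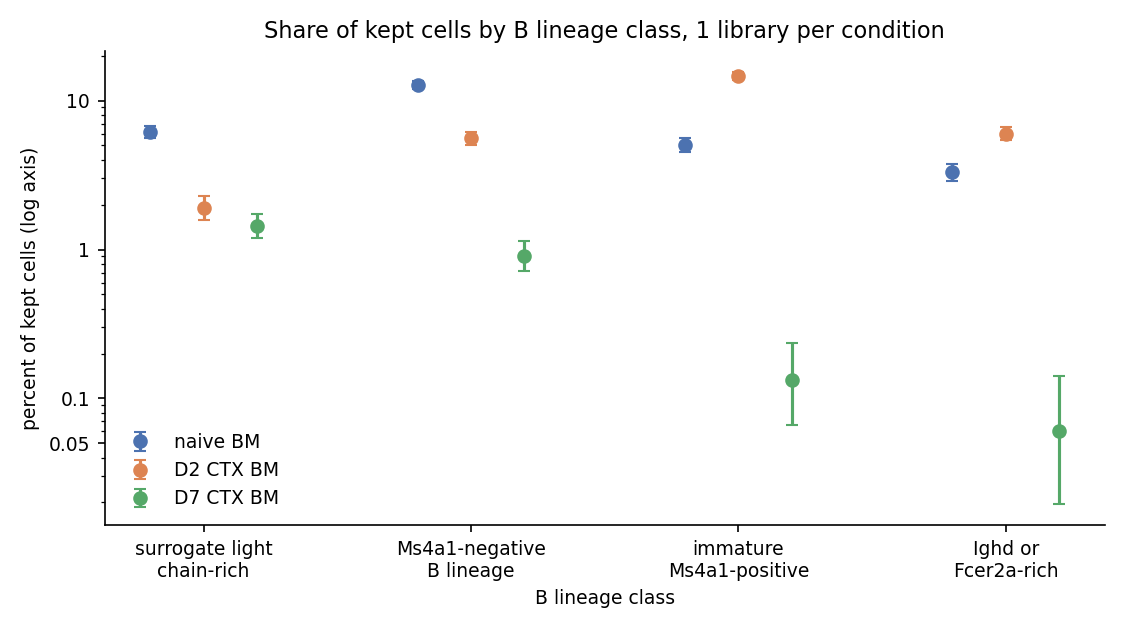
Percent of kept cells (log axis) in each of 4 B lineage classes in naive, D2 CTX and D7 CTX BM, with exact 95% intervals that cover counting error only. At D2 CTX the immature Ms4a1-positive and the Ighd or Fcer2a-rich classes lie above naive BM and the other 2 classes below, and at D7 CTX all 4 lie below naive BM.

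The 11 cells at D7 CTX were of 2 kinds. In 6 of them immunoglobulin genes made up 39.4% to 61.3% of the UMIs and Jchain had 28 to 1229 UMIs, which are features of plasma cells, and Ms4a1 had 1 to 4 UMIs. The other 5 cells had 1.23% to 2.76% immunoglobulin UMIs and no Jchain, as did most naive and D2 CTX cells, and held 11868 UMIs in all. Those 5 cells held 86 UMIs of Ighm, 24 of Vpreb3, 6 of Rag1 and 1 of Cd93. No genes were compared at D7 CTX because of the low number of cells, and the 5 cells had 1 UMI of Ccng1 and none of Cdkn1a or Bbc3.

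The second comparison asked which genes differed between D2 CTX and naive cells of the class. Levels were UMIs summed over the cells in CPM, and a gene was compared if it had at least 100 UMIs over both libraries and at least 20 CPM in 1 of them. With 1 CPM added, 169 of 5645 genes (2.99%) were higher at D2 CTX by at least 1 log2 unit and 40 (0.709%) were lower. Both counts include genes that reached the CPM limit in only 1 library. The D2 CTX cells held 3356428 UMIs and the naive cells 1305708. A gene found only at D2 CTX thus met the limit of 100 UMIs at a lower CPM than one found only in naive cells. How far this moved the counts was not tested. Without the highest Scrublet scores 18 genes were lower, with the rule applied after thinning 88 were higher, and with the median of all genes set to 0 there were 121 higher and 57 lower. In single-lineage cells 108 of 4958 genes (2.18%) were higher and 36 (0.726%) lower. The median over all genes compared was 0.13 in all cells and 0.14 in single-lineage cells, and list medians are to be read against that shift. Of all genes compared 63.4% lay above 0. The 2 sets shared 73 higher genes, which are 43.2% of the first and 67.6% of the second, and 28 lower genes, which are 70.0% and 77.8%. For 75 of the 169 higher genes, over 50% of the D2 CTX UMIs lay in the 92 cells left out. The neutrophil list had a median of 0.83, with 4 of its 12 genes higher by 1 log2 unit. In single-lineage cells its median was 1.33, with 6 of 11 genes higher.

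Of the 12 genes with the highest ratios, most are known from macrophages or neutrophils. Ccl5, a chemokine, had no UMI in naive cells and 223 at D2 CTX, at least 28.9-fold higher against the level of 3 UMIs, but 98.7% of these UMIs were in 5 cells. Hmox1, which degrades heme, Lpl, Vcam1 and Fcna had 82.8%, 93.5%, 96.5% and 97.9% of their D2 CTX UMIs in 5 cells. BC100530, Gm5483 and Stfa2l1 lie on chr16 in the Stefin A cluster of cysteine protease inhibitors, and Clec4d and Csf3r, the receptor for G-CSF, are neutrophil genes. These 5 genes were found in 81 to 189 of the 894 cells and were also higher at D2 CTX in cells without Cd79a, by 0.67 to 1.72 log2 units. In single-lineage cells Hmox1 still had 290 UMIs in 33 of 802 D2 CTX cells and Csf3r 118 UMIs. Lpl kept 116 of its 124 D2 CTX UMIs there, Vcam1 139 of 144 and Ccl5 180 of 223. The limit of 5% thus did not remove all RNA of these genes. Gm42047, annotated as a long noncoding RNA, had 10 and 251 UMIs and was detected in 158 D2 CTX cells.

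Gm10076, annotated as a long noncoding RNA, was the most widely detected of the 12. It had 72 UMIs in 57 of 358 naive cells and 1833 UMIs in 650 of 894 D2 CTX cells, which gave 3.31 (2.97 to 3.67) on the log2 scale. The same ratio was 3.31 in Ighd or Fcer2a-rich cells, 3.26 in Ms4a1-negative cells, 2.98 in surrogate light chain-rich cells, 3.34 in T cells and 3.31 in cells without Cd79a. The point values of these 6 classes lay between 2.98 and 3.34, and the cause was not tested.

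The 12 genes with the lowest ratios were S100a4, Hist1h1b, Fosb, Rrm2, Klf4, Cox6a2, Mki67, H2afx, Fn1, Cenpf, Birc5 and Cenpe, of which Rrm2, Mki67 and Birc5 passed as members of the proliferation list. S100a4, Hist1h1b, Rrm2, Klf4, Cox6a2 and Cenpe were under 20 CPM at D2 CTX, and so were compared only through their naive levels. Hist1h1b, a linker histone made in S phase, had 133 UMIs in naive and 58 in D2 CTX cells (log2 ratio -2.56). S100a4 had 90 and 34 UMIs (-2.77) and Fn1, a monocyte gene of the other-cell lists, 114 and 81 (-1.86). Cox6a2, a gene of the plasmacytoid dendritic cell list, had 74 and 39 UMIs (-2.29). In naive cells 95.6% of the Fn1 UMIs were in 5 cells, and S100a4 was detected in 9 cells. Fosb, a subunit of the AP-1 factor, was more widely spread, with 345 UMIs in 77 naive and 158 UMIs in 36 D2 CTX cells, and 42.6% of the naive UMIs in 5 cells.

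The list of p53 targets had a median ratio at D2 CTX above that of all genes, with single ratios from 0.03 upward. All 14 compared genes of the 28 on the list had ratios above 0, with a median of 0.70 against 0.13 for all genes, and Bbc3, Cdkn1a and Ccng1 (3 of 14, beside 2.99% of all genes) passed 1 log2 unit. Of these, Bbc3 and Cdkn1a were under the CPM limit for comparison in naive cells, and so were compared only through their D2 CTX levels. In single-lineage cells the median was 0.82 over 12 genes, all above 0, and Cdkn1a, Ccng1 and Mdm2 passed. There too Cdkn1a, at 8.14 CPM in naive cells, was compared only through its D2 CTX level. Ccng1 (chr11:40748552-40755311), which encodes cyclin G1, had 41 UMIs in 39 naive cells and 518 UMIs in 261 D2 CTX cells, that is 31.4 and 154 CPM, with 2.30 (1.84 to 2.79) on the log2 scale. The 5 richest cells held 21.6% of the D2 CTX UMIs. After thinning, Ccng1 was detected in 2.14% of naive and 13.6% of D2 CTX single-lineage cells, and any of Ccng1, Cdkn1a, Bbc3 and Mdm2 in 6.73% and 23.7%.

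Arrest and death genes of the list differed in how they were spread. Cdkn1a (chr17:29090976-29100727), the cell cycle inhibitor p21, had 9 UMIs in naive and 140 in D2 CTX cells, 6.89 and 41.7 CPM (log2 ratio 2.60, 1.63 to 3.76), but only 53 of 894 D2 CTX cells held one and 51.4% of the UMIs were in 5 cells. In single-lineage cells at D2 CTX, 69 of the 112 Cdkn1a UMIs lay in 6 cells with RNA of cycle genes, described below with the proliferation genes, and 79 lay in the 268 of 802 cells lowest in Ighm. Without the cycling cells Cdkn1a was at 2.30 CPM in naive (2 UMIs) and 20.1 CPM at D2 CTX (43 UMIs), and Ccng1 at 34.5 and 139 CPM. Bbc3 (chr7:16308393-16318205), which encodes the death-inducing protein PUMA, had 6 and 103 UMIs (2.74, 1.57 to 4.22) in 6 and 81 cells. Mdm2, the inhibitor of p53, was at 45.2 and 83.1 CPM (0.88, 0.47 to 1.31), and Bax, which permeabilizes mitochondria, at 98.8 and 177 CPM (0.84, 0.57 to 1.13). Phlda3 had 1 and 67 UMIs and Polk 8 and 63, both too few to be compared.

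Ccng1 was also higher at D2 CTX in each other class examined. The log2 ratio of Ccng1 was 2.36 in Ighd or Fcer2a-rich cells, 1.66 in Ms4a1-negative cells, 2.14 in surrogate light chain-rich cells and 1.57 in T cells. In cells without Cd79a Ccng1 was at 26.1 and 224 CPM. The ratio in the immature cells lay above that of the Ms4a1-negative cells by its point value, but their intervals overlapped (1.84 to 2.79 and 1.38 to 1.95). Cdkn1a was at 13.8 and 184 CPM in cells without Cd79a, and at 3.71 on the log2 scale in Ighd or Fcer2a-rich cells on 2 and 43 UMIs.

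**Figure D4:**
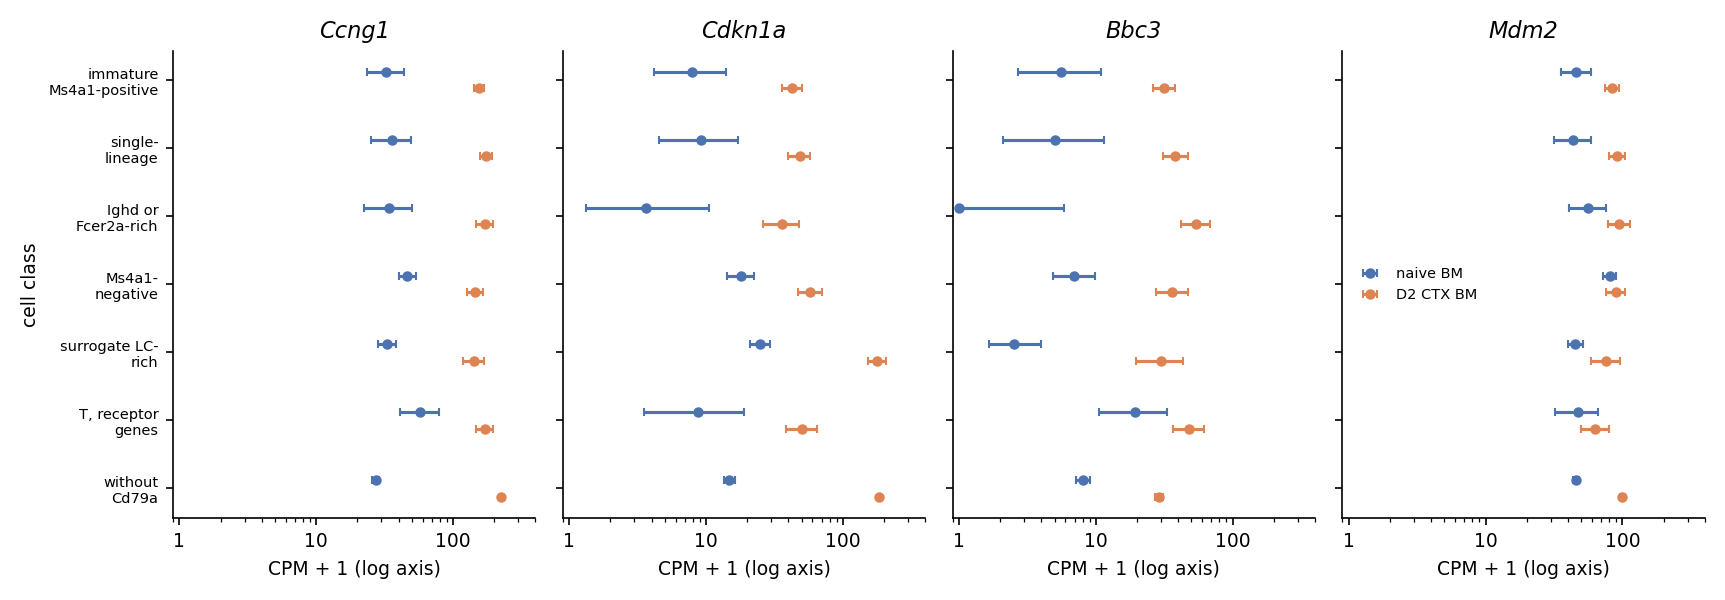
Level of 4 p53 targets in CPM + 1 (log axis) in naive and D2 CTX cells of 7 classes, with exact 95% intervals of the summed UMIs. In the immature Ms4a1-positive cells Ccng1 goes from 31.4 to 154 CPM, and Ccng1, Cdkn1a and Bbc3 are higher at D2 CTX in each class shown.

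The promoters of 3 of these genes are shown because they hold the half-site bound by p53, with the half-site in capitals. They are 30 bases each from the RefSeq windows of build GRCm38.p6, which run from 250 bases before to 50 bases after the transcript start of the reference strain C57BL/6J, written 5′ to 3′ on the strand of the gene.
Ccng1, chr11:40755452-40755481, minus strand: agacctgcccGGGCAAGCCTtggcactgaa
Mdm2, chr10:117710925-117710954, minus strand: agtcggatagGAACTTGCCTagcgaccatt
Cdkn1a, chr17:29090918-29090947, plus strand: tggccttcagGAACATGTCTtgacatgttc
The half-site was in 10 of 28 windows of the p53 list (9 of 20 genes with a window) and in 8.36% of all 32851 windows. A match is a description of the sequence and not evidence of binding.

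Genes of survival and death had a median of 0.31 over 16 genes, and Bbc3 and Bcl2l11 passed 1 log2 unit (2 of 16, beside 2.99% of all genes). Both were under the CPM limit for comparison in naive cells, and so were compared only through their D2 CTX levels. In single-lineage cells Bcl2l11 alone passed of 12 compared genes, again only through its D2 CTX level, with a median of 0.32. Bbc3, with 4 and 88 UMIs there, had too few UMIs to be compared. Bcl2l11, which encodes the death-inducing protein BIM, had 18 and 119 UMIs, at 13.8 and 35.5 CPM (log2 ratio 1.36, 0.64 to 2.17), and 103 of 894 D2 CTX cells held one. Of the genes that keep cells alive, Mcl1 was at 0.33 (0.21 to 0.45), Bcl2 at 0.11 (-0.26 to 0.50) and Bcl2l1 at -0.40 (-0.97 to 0.20). Of the 9 compared genes for repair of DNA crosslinks and checkpoints, none passed 1 log2 unit upward and H2afx passed downward. This is beside 2.99% of all genes upward and 0.709% downward. H2afx had 194 and 139 UMIs (-1.84, -2.17 to -1.52). With the mean of the cells' CPM H2afx was at -0.81, short of 1 log2 unit.

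The list of proliferation genes had a median ratio at D2 CTX below that of all genes, although 3 of its compared genes lay above 0. Of the 20 compared proliferation genes 7 were lower by 1 log2 unit (beside 0.709% of all genes) and none higher, with a median of -0.76, and in single-lineage cells 6 of 15 were lower with a median of -0.90. Mki67 had 246 UMIs in naive and 174 in the larger D2 CTX group, 188 and 51.8 CPM (-1.86, -2.15 to -1.58). Top2a was at 154 and 58.4 CPM (-1.40), and Rrm2, a subunit of ribonucleotide reductase, at 55.1 and 9.53 CPM (-2.53). Rrm2 was under 20 CPM at D2 CTX and so was compared only through its naive level.

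These levels rested on few cells. Mki67 was detected in 25 of 358 naive and 29 of 894 D2 CTX cells, and 76.4% of the naive UMIs were in 5 cells. Counted as cells with at least 2 UMIs over 5 cycle genes, 9 of 330 naive single-lineage cells (2.73%) and 6 of 802 at D2 CTX (0.748%) were cycling, and after thinning 1.83% and 0.252%, with intervals that overlapped (0.676 to 3.95 and 0.0306 to 0.908). The 9 naive cells held 161 of the 170 Mki67 UMIs of single-lineage cells. The 6 D2 CTX cells had a median of 32001 UMIs and held 112 of the 411 Ccng1 UMIs, a level of 511 CPM against 139 CPM in the other cells. Their median Ighm level was 769 CPM against 10410 CPM in the other D2 CTX cells, and that of the 9 naive cells 3268 against 9314 CPM, so these cells were low in the marker of the class. The median of the proliferation list was -0.31 when cells with the highest Scrublet scores were left out.

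The list of interferon-stimulated genes had a median ratio at D2 CTX above that of all genes (0.13). Of 18 compared genes 16 lay above 0, with a median of 0.68, and Igtp, Trim30a and Ifi27l2a passed 1 log2 unit (3 of 18, beside 2.99% of all genes). Of these, Igtp was under the CPM limit for comparison in naive cells, and so was compared only through its D2 CTX level. Ifi27l2a did so in 7 of 12 alternative settings. Trim30a (chr7:104409025-104465193) had 95 and 584 UMIs, 72.8 and 174 CPM (1.26, 0.94 to 1.59), and was found in 64 naive and 322 D2 CTX cells. Igtp (chr11:58199556-58207591), an interferon-induced GTPase, had 14 and 115 UMIs (1.68, 0.87 to 2.59), and Ifi27l2a 360 and 764 CPM (1.09, 0.94 to 1.23). In single-lineage cells Ifi27l2a was at 0.92, Igtp had too few UMIs to be compared, 2 of 13 genes passed and the median was 0.72. Trim30a was also higher in each neighbouring class, from 0.93 in Ighd or Fcer2a-rich cells to 1.34 in Ms4a1-negative cells, and at 1.41 in cells without Cd79a.

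Promoters of this list often held the core of the interferon-stimulated response element, GAAANNGAAA, searched on both strands with overlaps allowed. It was present in 15 of 28 windows (14 of 22 genes with a window) and in 3.44% of all windows. The stretches printed here come from the same RefSeq windows and show the core in capitals for the 2 genes that passed 1 log2 unit and had it, Igtp and Trim30a, and for Irgm1 (log2 ratio 0.47, -0.09 to 1.06), a GTPase related to Igtp whose stretch holds 2 overlapping cores. In Trim30a the core lies on the opposite strand.
Igtp, chr11:58199512-58199541, plus strand: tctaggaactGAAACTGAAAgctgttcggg
Trim30a, chr7:104465210-104465239, minus strand: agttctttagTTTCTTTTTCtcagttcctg
Irgm1, chr11:48871431-48871460, minus strand: cctgtttcaaGAAATAGAAACCGAAActga

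Feedback genes of NF-kB, the factor downstream of the B cell and BAFF receptors, differed in part. Birc3, an inhibitor of cell death, was at 71.2 and 187 CPM (1.39, 1.07 to 1.72) and found in 75 naive and 379 D2 CTX cells, and Nfkb2, the precursor of the alternative pathway, at 29.9 and 68.5 CPM (1.20, 0.70 to 1.73). Nfkbia, the classical inhibitor, was at 213 and 249 CPM (0.23, 0.03 to 0.43). These 2 genes of 12 passed 1 log2 unit (beside 2.99% of all genes) and the median was 0.26 against 0.13 for all genes. In single-lineage cells the same 2 passed of 11, with a median of 0.34. Birc3 was at 0.47 (0.17 to 0.77) in Ighd or Fcer2a-rich cells, an interval that lay below that of the immature cells, and at 1.32 in Ms4a1-negative cells.

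Immediate early genes did not move together. Of 17 compared genes, Dusp5 (1.03) passed upward and Fosb (-2.49), Klf4 (-2.36) and Fos (-1.26) downward (beside 2.99% of all genes upward and 0.709% downward), with a median of -0.04. Klf4, at 10.4 CPM at D2 CTX, was compared only through its naive level. Dusp5 passed in 6 of 12 alternative settings, which gave 0.79 to 1.11. In single-lineage cells Dusp1 (1.11) and Dusp5 passed upward and Fosb (-3.65) and Fos (-1.96) downward of 16 genes, and Klf4, with 63 and 33 UMIs, had too few UMIs to be compared. Fos had 507 UMIs in 98 naive cells and 545 UMIs in 162 D2 CTX cells. Such genes are also known to respond to the handling of tissue, which was not measured here.

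None of 24 compared genes of receptor signalling passed 1 log2 unit, and the median was 0.15. Their range ran from Cd72, an inhibitory coreceptor, at 605 and 366 CPM (-0.72, -0.85 to -0.59), to Ptprc at 0.55 (0.44 to 0.67). Syk, the kinase next to the receptor, was at 370 and 503 CPM (0.44, 0.30 to 0.59). None of 25 transcription factors passed 1 log2 unit, with a median of 0.17. Ebf1 was at 2412 and 1807 CPM (-0.42), Pax5 at 576 and 658 CPM (0.19), and Sox4, a factor of early precursors, at 264 and 180 CPM (-0.55, -0.74 to -0.36). Klf3, a Kruppel-like repressor, was at 0.97 in all and 1.12 in single-lineage cells.

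None of the genes of the precursor stages or of later maturation passed 1 log2 unit. Of 12 precursor genes 4 lay above 0, with a median of -0.26. Il7r was at 78.9 and 47.1 CPM (-0.74, -1.11 to -0.37), Vpreb3 at 1810 and 1283 CPM (-0.50, -0.57 to -0.42), Rag1 at 75.1 and 81.6 CPM (0.12, -0.22 to 0.47) and Cd93 at 165 and 202 CPM (0.29, 0.07 to 0.52). Of 15 later genes 11 lay above 0, with a median of 0.33. With the rule applied after thinning that median was 0.05, below the 0.10 of all genes. Ltb, the membrane anchor of lymphotoxin, was at 542 and 964 CPM (0.83, 0.71 to 0.95), and Ccr7, the receptor for lymph node chemokines, at 45.2 and 75.7 CPM (0.74, 0.33 to 1.18). Cd93 after thinning was detected in 18.7% of naive and 24.8% of D2 CTX single-lineage cells and Rag1 or Rag2 in 7.95% and 9.71%, with overlapping intervals in each pair.

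Of the 16 compared receptors for cytokines and survival signals 1 passed 1 log2 unit (beside 2.99% of all genes), and 1 of 13 did in single-lineage cells. That gene was Il4ra, the receptor for interleukin 4, at 19.1 and 47.4 CPM (1.31, 0.69 to 1.98), but with the rule applied after thinning it was at 0.64. Over all cells of the class Il4ra was under the CPM limit for comparison in naive cells, and so was compared only through its D2 CTX level. Tnfrsf13c, through which BAFF keeps B cells alive, was at 378 and 330 CPM (-0.19, -0.35 to -0.04). Of 17 genes of marrow retention and exit none passed, with Cxcr4, the receptor that holds B cells in the marrow, at 169 and 199 CPM (0.23, 0.01 to 0.46) and S1pr1, the exit receptor, at 113 and 127 CPM (0.17, -0.10 to 0.45). None of 8 recombination genes passed, although Foxo1, which activates the Rag genes, was at 160 and 236 CPM (0.56, 0.34 to 0.79).

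Genes of general cell functions lay within 1 log2 unit except for 1 chaperone. None of 10 MHC class II, 15 MHC class I, 12 glycolysis, 32 nuclear oxidative phosphorylation, 80 ribosomal protein and 13 mitochondrial genome genes passed, with medians of 0.03, 0.03, 0.25, -0.14, -0.19 and 0.21. Among 11 heat shock chaperones Hsph1 passed (1 of 11, beside 2.99% of all genes), with 17 and 133 UMIs (1.61, 0.87 to 2.43), and the median was 0.39. Hsph1 was under the CPM limit for comparison in naive cells, and so was compared only through its D2 CTX level. With the rule applied after thinning Hsph1 was at 0.91, short of 1 log2 unit. In single-lineage cells the medians were 0.12 for glycolysis, 0.31 for the chaperones, 0.07 for MHC class II and 0.11 for MHC class I genes. When the rule was applied after thinning, the medians for glycolysis and for the chaperones were -0.32 and -0.07. The mice were BALB/c by the paper's general methods and the reference was C57BL/6J. Levels of MHC and immunoglobulin genes may therefore also reflect how well their reads align.

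**Figure D5:**
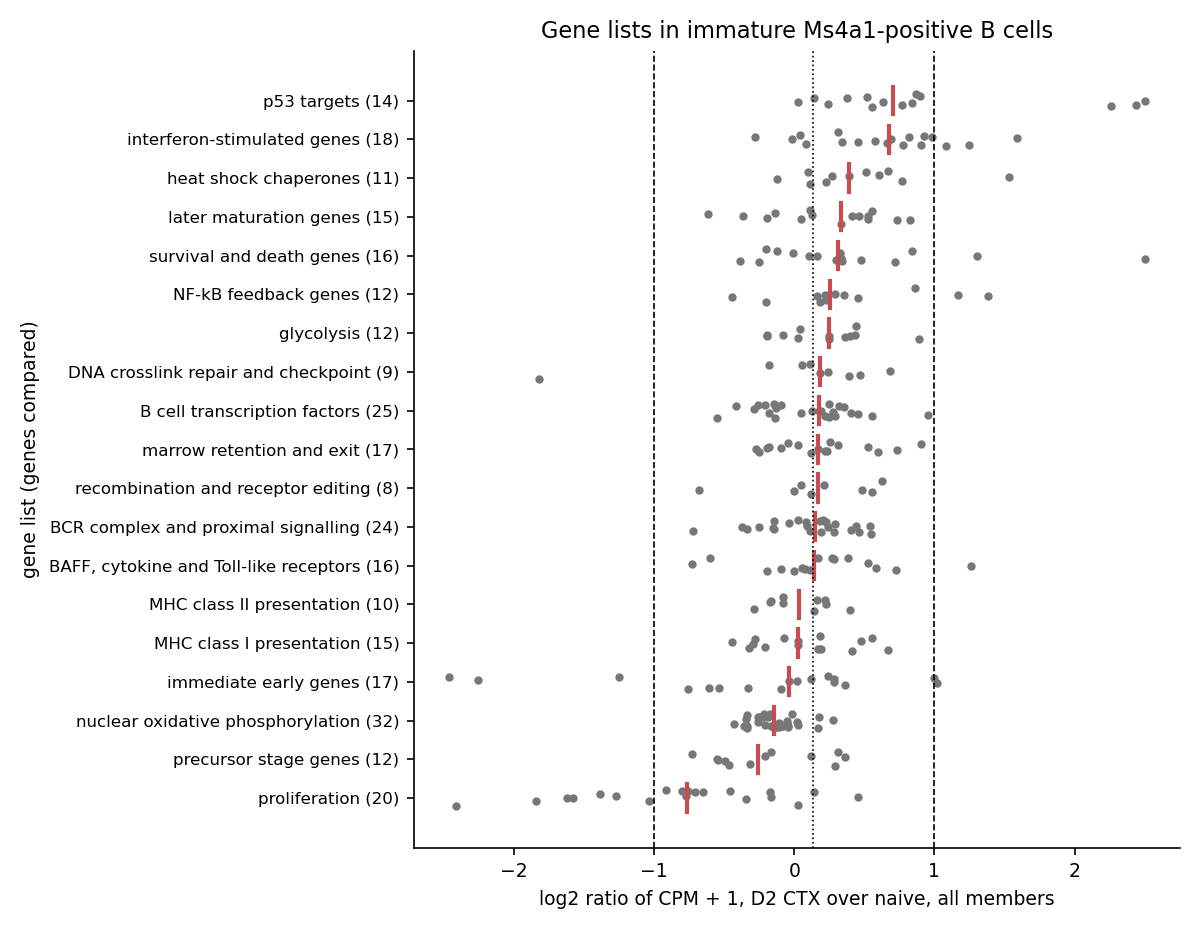
Each point is 1 compared gene of a list, at its log2 ratio of CPM + 1 between D2 CTX and naive cells of the class, with the list median as a red bar, the median of all 5645 genes (0.13) as a dotted line and 1 log2 unit either way as dashed lines. The p53 targets and interferon-stimulated genes have the highest medians (0.70 and 0.68) and proliferation genes the lowest (-0.76) among the lists drawn, which leave out the markers of other cell types. Of the lists left out, the neutrophil list had a median of 0.83 and the erythroid list of -1.15.

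Immunoglobulin levels were compared by medians, since a few cells held most of the RNA. In 10 naive, 16 D2 CTX and 6 D7 CTX cells immunoglobulin genes made up over 15% of the UMIs, from 39.4% upward, while no other cell exceeded 12.7%. All but 1 of these were left out of the single-lineage cells, and that 1, in naive BM, had 43850 UMIs, 68.8% of them immunoglobulin, and under 10 Jchain UMIs. In single-lineage cells the median Ighm level per cell was 9165 CPM in naive and 10384 CPM in D2 CTX BM, with quartiles of 6589 to 11398 and of 8006 to 13174 CPM. The ranges between the quartiles thus overlapped.

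Light chain RNA of both classes was present in most cells. The median cell of the class held 26 Igkc and 13 Iglc1 to Iglc3 UMIs in naive and 20 and 15 UMIs in D2 CTX BM. With at least 10 light chain UMIs, Iglc UMIs were over 50% in 27.6% of naive (95 of 344) and 32.6% of D2 CTX cells (283 of 867), whose intervals overlapped. However, 252 of the 344 and 760 of the 867 cells held between 10% and 90% Iglc UMIs, so that most cells could not be called kappa or lambda cleanly. In T cells by receptor genes 2 Iglc and 153 Igkc UMIs were found in 160 naive and 19 and 216 in 327 D2 CTX cells. In naive surrogate light chain-rich cells the median of Igkc was 5 UMIs, and the median of Iglc was 0 in surrogate light chain-rich cells of both libraries. Iglc2 and Iglc3 are near-identical copies and their reads may be split between them. Where both classes were strictly separated (at least 20 UMIs and 90% of 1 class), Iglc led in 28 of 78 naive and 52 of 97 D2 CTX cells.

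Cells with and without RNA of the Rag genes are described here by 5 named genes. Single-lineage cells with a UMI of Rag1 or Rag2 were 47 of 330 in naive and 129 of 802 in D2 CTX BM (14.2% and 16.1%). In these cells Cxcr4 was at 567 CPM against 152 in naive and at 628 against 174 at D2 CTX, Sox4 at 699 against 280 and at 797 against 147, and Il7r at 217 against 87.8 and at 237 against 30.5. Tnfrsf13c was lower with Rag RNA, at 210 against 508 in naive and at 237 against 459 CPM at D2 CTX, and Cr2 had 1 UMI against 35 and 4 against 130. Median depths were 2187 and 2405 UMIs in naive and 2367 and 2546 UMIs at D2 CTX, lower with Rag RNA in both. The direction of each of these 5 genes was the same in the 2 libraries.

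Cells with Cd93 RNA were compared with the rest for Rag1, Ltb and Ccng1. They were 116 of 330 in naive and 322 of 802 in D2 CTX BM, with Rag1 at 150 against 70.8 CPM and at 182 against 55.6 CPM, and Ltb at 501 against 735 and at 869 against 1460 CPM. Ccng1 at D2 CTX was at 211 CPM in the cells with Cd93 and 144 CPM in those without, and in naive at 30.5 and 37.0 CPM on 11 and 23 UMIs. Ccng1 was thus higher at D2 CTX in both subsets.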

How the data were processed

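Libraries were 10x 3′ V3. According to the methods and processing notes, the authors aligned reads to mm10 with Cell Ranger 3.1 and used Seurat 5.0, and they deposited unnormalized counts of UMIs per gene and barcode. No removal of doublets is stated for the mouse data, and the numbers of cells stated exceed the deposited barcodes (7649 naive, 6608 D2 CTX, 8605 D7 CTX). Barcodes with at least 200 genes and under 20% mitochondrial UMIs were kept (7104, 6126 and 8290). The members, gene lists and limits were chosen with earlier results of these data known.

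Shares have exact Clopper-Pearson intervals, levels exact Poisson intervals and ratios exact conditional intervals (95%). For shares of cells with a UMI, each cell was thinned to 1000 UMIs. Named genes were the 12 highest and 12 lowest ratios, the 2 highest, 2 lowest and 2 most abundant of each list, markers and genes of the rule. Any further gene was named after its values were seen. Immunoglobulin genes, Xist, Y-linked genes and the genes of the rule were listed apart. The gene comparison was tested on simulated counts. Likeness to doublets was scored by Scrublet (scanpy 1.11.5) in Python 3.11.15 with numpy 2.4.6, scipy 1.17.1, pandas 2.3.3 and matplotlib 3.10.9. T cells by receptor genes, single-lineage cells and cells without Jchain were added after the data had been seen. The first was added because the planned T cell class (at least 2 UMIs of Cd3d, Cd3e and Cd3g, no Cd79a) held cells with S100a8 RNA and went against its name. T cells by receptor genes also held neutrophil RNA, and the neutrophil list summed to 56342 CPM in naive and 24324 CPM in D2 CTX cells of that class. Annotation was GENCODE M21, and promoters were from RefSeq (GRCm38.p6).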

Additional observations from a re-analysis of the deposited data

Results flagged for a closer look

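The share of kept cells at D2 CTX relative to naive BM went in opposite directions between neighbouring B lineage classes, with log2 ratios of 1.53 for immature Ms4a1-positive cells, -1.68 for surrogate light chain-rich cells and -1.18 for Ms4a1-negative cells. With 1 library per condition this difference was not tested.

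Fos was lower at D2 CTX in single-lineage immature cells (273 and 169 UMIs, log2 ratio -1.96) and higher in Ms4a1-negative cells (468 and 424 UMIs, 1.26), with 47.3% of the naive UMIs of the immature cells in 5 cells. Ly6c2, a monocyte and T cell antigen, was at -2.13 and 1.15 in the same classes, but 19 naive and 22 D2 CTX immature cells held a UMI and 86.1% and 78.0% of the UMIs were in 5 cells. The Ms4a1-negative cells were not limited to single-lineage cells. Their plasma cell list summed to 2827 CPM in naive and 13210 CPM in D2 CTX BM. Their neutrophil list summed to 32964 and 39626 CPM, and their monocyte and macrophage list to 1277 and 1054 CPM. Neither the Fos nor the Ly6c2 difference was tested.

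In the naive library of sorted monocytes, outside the comparisons above, 4 of 1891 kept cells (0.212%) met the rule, with a median of 33856 UMIs, while 0 of 2564 did in the CTX library, which allows a share of up to 0.117% at 3 cells of the total and up to 0.144% by the exact interval.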

How the results depend on the processing

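Intervals cover counting error only, 1 library per condition leaves differences between libraries and between conditions inseparable, and genes under the limit of 100 UMIs were not compared. The D2 CTX share over naive BM ranged from 1.42 to 1.60 log2 units over 9 settings, the median of the p53 list from 0.57 to 0.82 and of the interferon list from 0.54 to 0.86 over 13. None of the 39 genes past 1 log2 unit that were followed over the settings, no share ratio of the immature cells and neither of these medians turned sign where a value was given. Some of the 39 genes fell under the limits for comparison in part of the 12 alternatives. Fcna and Tpx2 had a value in only 6, and Bbc3, Clec4d, Cenpe, Klf4 and Rrm2 in only 7. Of the 39 genes, Il4ra (0.64) and Hsph1 (0.91) fell short of 1 log2 unit with the rule applied after thinning, Fn1 (-0.40), Top2a (-0.81) and Tuba1b (-0.41) without the highest Scrublet scores, Tuba1b (-0.97) with at least 3 UMIs of Cd79a and 2 of Ms4a1, H2afx (-0.81) with the mean of the cells' CPM, Ifi27l2a in 5 of 12 settings and Dusp5 in 6 of 12. The medians of lists near 0 did turn sign: glycolysis ranged from -0.32 to 0.37, heat shock chaperones from -0.07 to 0.53, MHC class I from -0.10 to 0.17, MHC class II from -0.10 to 0.11, crosslink repair from -0.04 to 0.28 and immediate early genes from -0.18 to 0.02, as did Bcl2 (-0.02 to 0.34) and Rag1 (-0.10 to 0.26). Of the values of named genes under alternatives, 2694 moved by less than the counting interval and 259 by more. Settings for single-lineage cells, cells without Jchain and T cells by receptor genes were chosen after seeing the data. Leaving out the highest Scrublet scores gave 18 lower genes and a proliferation median of -0.31. Requiring 3 UMIs of Cd79a and 2 of Ms4a1 gave -0.47 and averaging the CPM of cells -1.15 for that median. Applying the rule after thinning gave 0.90 for the share of B lineage cells and 88 higher genes, single-lineage cells 108 higher genes, and no filter beyond 10 UMIs 705 higher and 257 lower genes. The D7 CTX share was at -6.35 without cells rich in Jchain, -6.27 in single-lineage cells and -2.69 outside the myeloid class. The strict light chain call gave 53.6% Iglc-led cells at D2 CTX and 35.9% in naive BM. The share of T cells was at -0.02 by the planned class and 1.24 by receptor genes. In each case the cause was not tested. No paired analysis was possible because each condition had 1 library.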
